A study of Mus musculus with 10 samples.

Results

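The comparison described here sets brown adipocytes given ISO against brown adipocytes given DMSO, the solvent control, for 3 days. It uses 4 of the 10 libraries of the study, 2 of each group, and all 15212 genes that passed a filter on low counts. All cells came from C57BL/6 mice, no genotype or allele is named in the labels, and every group was cultured brown adipocytes from which total RNA was taken and sequenced. The study also has DMSO for 1 day and BML-260 for 1 day or 3 days, with 2 libraries each. ISO is an agent that the labels do not spell out, and its libraries are listed at 1 day. The vehicle group of this comparison was therefore not matched in time: it was taken because, of the DMSO libraries, those of 3 days were nearest to ISO in their measured overall profile. Agent and time cannot be told apart in any difference between these groups, so values against DMSO at 1 day are given beside many of the results. The labels give no age, sex, passage or culture format, and do not say whether the libraries of a group came from separate cultures or animals. Each p-value below thus reflects library-to-library spread alone, and that spread may be technical.

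Brown adipocytes burn lipid to make heat. Catecholamines act on beta-adrenergic receptors of the cell surface, which raise cyclic AMP (cAMP) and activate protein kinase A. The kinase releases fatty acids from the lipid droplet and, through transcription factors such as CREB, turns on genes that include Ucp1, the uncoupling protein that lets mitochondria dissipate the proton gradient as heat. The same signal is known to feed back on its own receptors and on the phosphodiesterases that remove cAMP.

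Totals per library were 16955918 and 21185675 counts with ISO and 19296922 and 18938924 with DMSO at 3 days. The root mean square difference in log2 level from ISO over all tested genes was 0.295 for DMSO at 3 days, 0.310 for BML-260 at 3 days, 0.425 for DMSO at 1 day and 0.446 for BML-260 at 1 day. So the ISO libraries, listed at 1 day, lay nearer to both 3-day groups than to either 1-day group. The label was taken as given. All 12 markers fixed for brown adipocytes were measured, and their summed level was 7367 and 7089 CPM (counts scaled by library size to a common total) with ISO against 7818 and 7683 CPM with DMSO at 3 days. Fabp4 made up most of this sum, with 73277 and 89943 counts with ISO. The sum thus says little of the other markers, which went different ways. Ucp1 itself was a gene of modest abundance, with 241 to 492 counts per library, and Dio2, which activates thyroid hormone, stayed at 2 counts or fewer per library and was not tested. Of 15 macrophage markers, 8 had no count in any of the 4 libraries, among them Adgre1, Ptprc and Mrc1. The list, most of it Cd68 and Cd14, summed to 10.5 and 9.50 CPM with ISO against 6.97 and 6.70 CPM. Of 12 endothelial markers Tie1, Erg and Cldn5 had no count, and the list summed to 8.55 and 7.88 CPM with ISO against 9.41 and 8.51 CPM. Most of this sum was Egfl7, whose exons overlap those of Agpat2 and other genes, so it says little of the other endothelial markers. Of 14 muscle markers 7 had none, Myod1, Myog and Myf5 included, and the list, nearly all of it Des, summed to 79.97 and 77.5 CPM against 64.7 and 63.9 CPM. Preadipocyte and fibroblast markers summed to 2872 and 2639 CPM with ISO and 2680 and 2732 CPM with DMSO at 3 days, so these ranges overlap. In such bulk samples, fewer cells of a type and less RNA per cell cannot be told apart.

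By edgeR's quasi-likelihood test with Benjamini-Hochberg adjustment over all genes, 3026 genes (19.9%) differed at an adjusted p under 0.05. A gene past this threshold is said to have risen, fallen or changed with ISO. Of the genes tested, 1620 rose (10.6%) and 1406 fell (9.24%), shares that serve below as the background for each gene list. Most changes were small: the median absolute log2 fold change of the changed genes was 0.27, and 82.7% of them were under 0.5. At 0.5 or more the balance turned, with 143 genes that rose and 381 that fell. At 1 or more, 26 rose and 75 fell, but only 3 of each had at least 10 CPM in the group where they were higher. With upper-quartile scaling in place of TMM the total was 3051, made of 1234 genes that rose and 1817 that fell, so the direction in which more of the small changes lie depends on the scaling. Leaving out ISO replicate 2 brought the calls to 1469, leaving out DMSO 3 day replicate 1 to 1693 and leaving out DMSO 3 day replicate 2 to 1711, while 2542 were left without ISO replicate 1.

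**Figure D1:**
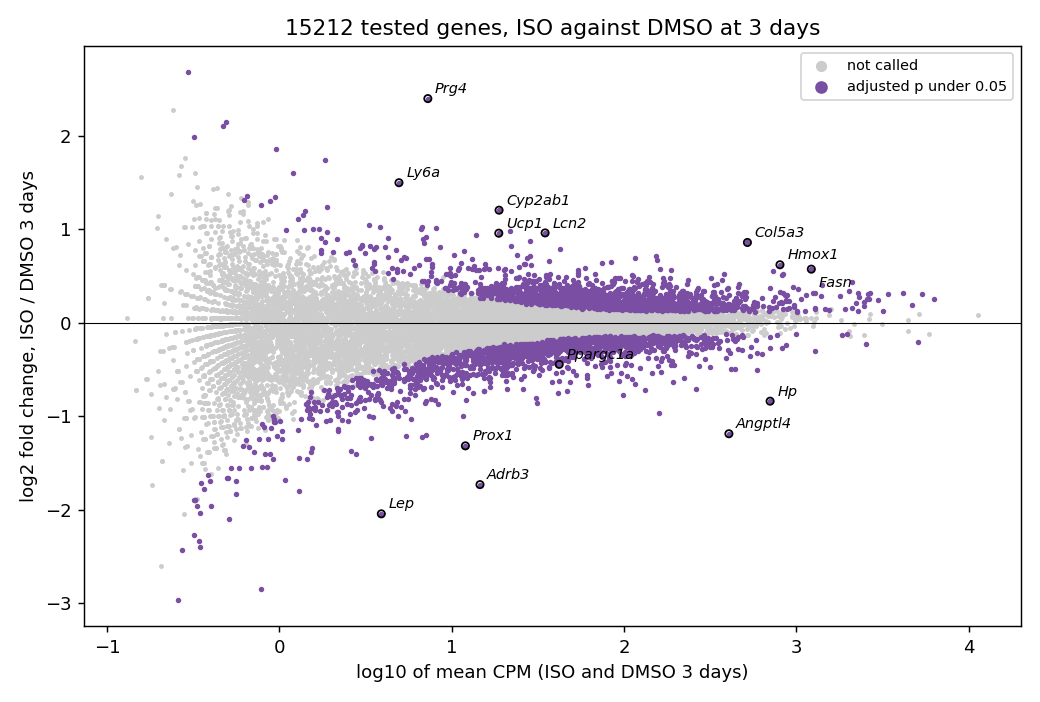
Mean level in CPM (log10, horizontal axis) and log2 fold change of ISO over DMSO at 3 days (vertical axis) of each of the 15212 tested genes, with called genes in purple and some named genes circled. Most called genes lie within 0.5 of 0, while Adrb3, Lep and Angptl4 stand far below and Prg4 and Ly6a far above it.

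Since the vehicle was 3 days old and ISO is listed at 1 day, each changed gene was placed against the 1-day vehicle as well. Of the 1620 genes that rose, 1190 (73.5%) had both ISO libraries above all 4 DMSO libraries, a position that 17.8% of all tested genes held. Against DMSO at 1 day 1004 of the 1620 were also called higher, 110 were called lower and 506 were not called. Of the 1406 genes that fell, 998 (71.0%) lay below all 4 DMSO libraries (17.2% of all tested genes), with 799 called lower, 81 called higher and 526 not called against DMSO at 1 day. Both contrasts use the same ISO libraries, so these counts are no independent check. They describe which genes had ISO libraries outside the range of both vehicle groups, and for which the call changes with the vehicle chosen.

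The genes with the largest changes among those of at least 10 CPM included the top and the output of the adrenergic pathway. Adrb3, the beta-adrenergic receptor typical of fat cells, stood at 7.24 and 6.30 CPM with ISO and at 21.3 and 23.5 CPM with DMSO at 3 days, a log2 fold change of -1.73 (SE 0.11, adjusted p = 7.3e-11). The ISO libraries were far below both, and also below DMSO at 1 day, at 19.0 and 20.6 CPM. Ucp1 stood at 26.1 and 23.5 CPM with ISO and 12.3 and 13.1 CPM with DMSO at 3 days, a rise of 0.96 (SE 0.10, adjusted p = 1.8e-07). At 6.05 and 5.10 CPM, DMSO at 1 day was lower still, so that the difference from that group was 2.15. Thus the receptor fell and the uncoupling protein rose in the same libraries, without overlap in either case. Ucp1 lies on chromosome 8 from 83290352 to 83298452 on the plus strand and Adrb3 on the same chromosome from 27225776 to 27250616 on the minus strand (GRCm38, GENCODE M21). Both are protein-coding, and an exon of Adrb3 overlaps the predicted gene Gm45470. The sources used here do not state whether counting used strand, so reads of overlapping genes may be shared.

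Leaving aside predicted names and genes that reach 10 CPM in neither group, Prg4 rose by the largest log2 fold change. It encodes lubricin, a secreted mucin-like glycoprotein of joints, and had 12.5 and 11.9 CPM with ISO and 1.98 and 2.63 CPM with DMSO at 3 days, a log2 fold change of 2.40 (SE 0.16, adjusted p = 1.4e-10), although its exons overlap those of Tpr. The next by this rule was Cyp2ab1, a cytochrome P450, at 28.1 and 24.4 CPM against 11.5 and 11.1 CPM (1.21, SE 0.10). Col5a3, a chain of fibrillar collagen V, had the smallest p of the 12 most raised genes by this rule, with 698 and 642 CPM against 367 and 371 CPM (0.86, SE 0.04, adjusted p = 1.0e-12). Lcn2, a lipocalin that binds bacterial iron carriers, had 43.7 and 48.2 CPM against 22.3 and 25.0 CPM (0.96, SE 0.08). In DMSO at 1 day each of these genes was below its level in DMSO at 3 days, so the ISO libraries lay above all 4. The other raised genes by this rule were the keratin Krt19 at 0.99, the guanine nucleotide exchange factor Kalrn at 0.94, Cdr2 at 0.88, the clock repressor Bhlhe41 at 0.82, the transcription factor Klf4 at 0.81, the alkaline phosphatase Alpl at 0.79 and the mannosyltransferase Alg3 at 0.77 on the log2 scale.

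Among the lowered genes several encode secreted or signalling proteins. Angptl4, a secreted inhibitor of lipoprotein lipase, had 276 and 220.1 CPM with ISO and 538 and 589 CPM with DMSO at 3 days, a log2 fold change of -1.19 (SE 0.09, adjusted p = 7.3e-10). It had 320.1 and 352 CPM with DMSO at 1 day, nearer to ISO, and the difference from that group was -0.44. Hp, the haemoglobin-binding plasma protein haptoglobin, had 537 and 473 CPM against 870.1 and 935 CPM (-0.84, SE 0.07). Prox1, a homeobox transcription factor, had 7.18 and 6.59 CPM against 16.99 and 17.2 CPM (-1.32, SE 0.11). Irs2, an adaptor of the insulin receptor, had 30.2 and 31.1 CPM against 48.8 and 54.7 CPM (-0.75, SE 0.08). In each case the libraries of the groups were apart. The rest were the Tie2 ligand Angpt1 at -0.87, the MAP kinase phosphatase Dusp4 at -0.86, the aspartoacylase Aspa at -0.83, the proteoglycan Prelp at -0.81, the single-strand DNA binding protein Nabp1 at -0.77, the early response factor Egr2 at -0.76 and Ccdc69 at -0.74. All 12 raised and all 12 lowered genes lay outside the range of all 4 DMSO libraries and were called the same way against DMSO at 1 day. Exons of 8 of the 24 overlap those of another gene.

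**Figure D2:**
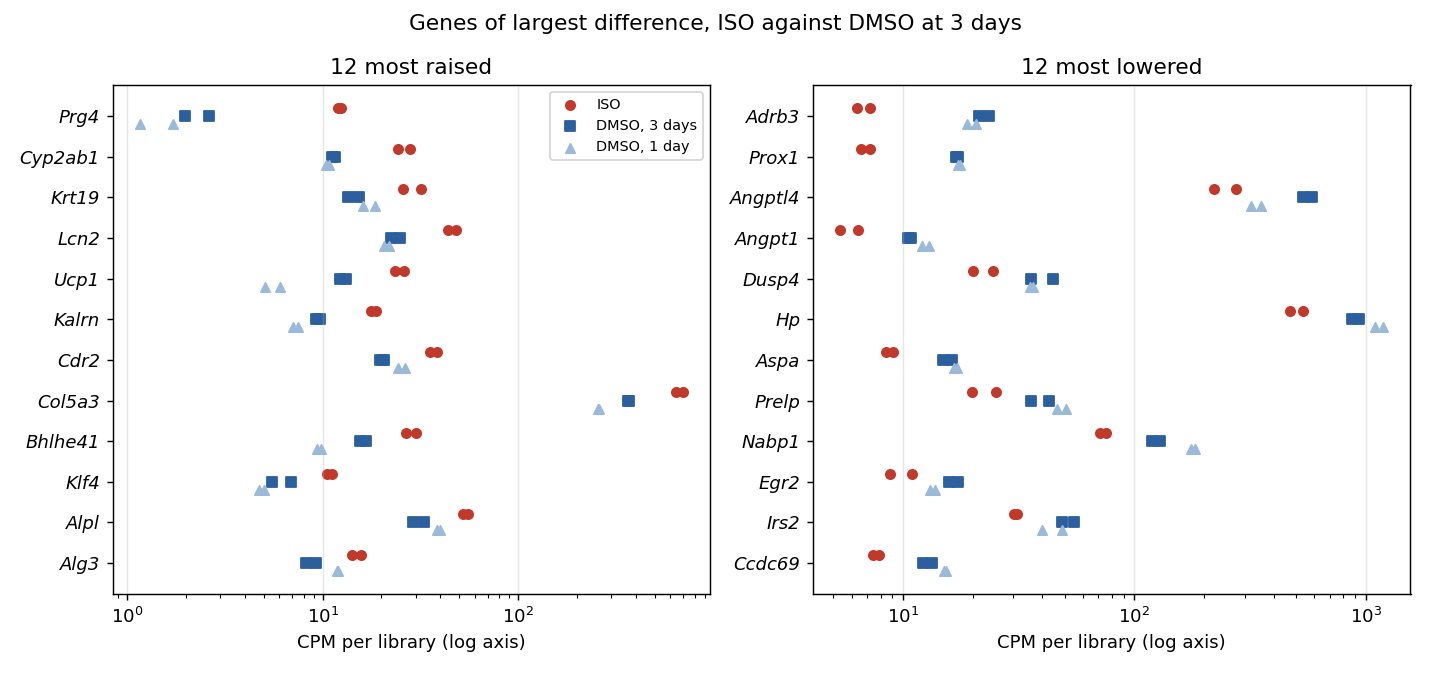
CPM in each library (log axis) of the 12 genes most raised and the 12 most lowered with ISO, with 2 points per group for ISO, DMSO at 3 days and DMSO at 1 day. In every row the ISO points lie to one side of all 4 DMSO points, and Adrb3, at 7.24 and 6.30 CPM with ISO, shows the widest gap of the lowered genes.

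Sequence just upstream of the start site is shown for 5 genes described below, because they hold the letters of sites that cAMP-responsive and clock transcription factors are known to bind. Promoters are the 250 bases before the start site in RefSeq (GRCm38.p6), 5′ to 3′ on the gene's strand. Capitals mark the cAMP response element TGACGTCA or its core TGACG, and the E-box CACGTG, each searched on both strands, and each full element also holds the core. Ucp1 is at chr8:83290098-83290347 (plus strand), Dusp1 at chr17:26508473-26508722 (minus), Btg2 at chr1:134079156-134079405 (minus), Per1 at chr11:69098699-69098948 (plus, the first of its start sites in the table) and Bhlhe41 at chr6:145865421-145865670 (minus).
Ucp1: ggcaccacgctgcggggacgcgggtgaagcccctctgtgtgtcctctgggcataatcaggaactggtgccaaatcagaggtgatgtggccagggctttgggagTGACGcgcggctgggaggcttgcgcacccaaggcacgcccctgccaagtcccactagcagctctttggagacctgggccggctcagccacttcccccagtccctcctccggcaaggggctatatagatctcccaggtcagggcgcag
Dusp1: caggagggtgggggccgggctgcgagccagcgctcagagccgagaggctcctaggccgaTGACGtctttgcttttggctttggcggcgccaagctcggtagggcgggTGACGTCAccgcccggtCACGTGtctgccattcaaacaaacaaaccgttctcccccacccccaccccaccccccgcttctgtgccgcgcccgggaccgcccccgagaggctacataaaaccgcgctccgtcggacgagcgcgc
Btg2: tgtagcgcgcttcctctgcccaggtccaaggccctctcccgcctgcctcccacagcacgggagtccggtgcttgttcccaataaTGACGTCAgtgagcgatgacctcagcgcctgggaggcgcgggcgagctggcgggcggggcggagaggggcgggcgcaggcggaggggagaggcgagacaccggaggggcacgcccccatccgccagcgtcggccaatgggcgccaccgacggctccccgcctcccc
Per1: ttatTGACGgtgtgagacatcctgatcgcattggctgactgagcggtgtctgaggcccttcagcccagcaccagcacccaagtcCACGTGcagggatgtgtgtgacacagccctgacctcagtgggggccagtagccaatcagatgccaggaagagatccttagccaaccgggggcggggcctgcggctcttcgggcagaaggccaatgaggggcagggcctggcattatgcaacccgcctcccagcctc
Bhlhe41: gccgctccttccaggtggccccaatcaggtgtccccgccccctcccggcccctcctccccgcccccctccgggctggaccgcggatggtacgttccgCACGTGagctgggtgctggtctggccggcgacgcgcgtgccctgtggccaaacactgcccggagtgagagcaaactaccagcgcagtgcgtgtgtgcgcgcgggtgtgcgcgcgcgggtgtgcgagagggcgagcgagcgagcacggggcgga
Among the 27025 genes with such a window, 1.77% had TGACGTCA, 19.8% TGACG and 6.86% CACGTG. Of the cAMP early genes that fell, 8 of 10 matched the table, 2 of the 8 had the full element and 6 the core. Of the early genes that rose, 6 of 7 matched, 0 had the full element and 3 the core. Over all 29 tested early genes 24 matched, 3 of them had the full element (12.5%) and 17 the core (70.8%). Of the clock genes that rose, 6 of 7 matched and 3 of the 6 had the E-box. Over all 19 tested clock genes 15 matched and 4 of them had the E-box (26.7%). A match is a description of the letters and shows no binding.

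Of 45 genes fixed for adrenergic receptors and the cAMP machinery, 41 were tested: 4 rose, 8 fell and 29 were not called (9.76% and 19.5%, median log2 fold change -0.02 beside 0.00 over all genes). Without ISO replicate 2 only 4 of them fell and without DMSO 3 day replicate 1 it was 5, and 2 rose without any one of ISO replicate 2, DMSO 3 day replicate 1 or DMSO 3 day replicate 2. Adrb1, another beta receptor, was not called. It had 13.04 and 13.9 CPM with ISO and 11.5 and 11.96 CPM with DMSO at 3 days (0.20, adjusted p = 0.19). Rgs2, a regulator of G protein signalling, fell from 141 and 149 CPM to 109 and 98.4 CPM (-0.49, SE 0.06). Akap12, an anchor of protein kinase A, fell by 0.30 and Sik2, a kinase that protein kinase A inhibits, by 0.27 on the log2 scale. Sik2 was at 109 and 115 CPM with DMSO at 1 day, beside 110.1 and 108 CPM with ISO, and was not called against that group (adjusted p = 0.6). Phosphodiesterase Pde10a moved the other way, from 8.54 and 9.13 CPM to 12.3 and 15.1 CPM (0.64, SE 0.12). Among the genes named here the change thus lay in the receptor Adrb3 and modulators of the pathway, in both directions.

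Genes known as early targets of cAMP and CREB also went both ways: of 29 tested, 7 rose and 10 fell (24.1% and 34.5%, median -0.04). Klf4 and Pde10a, described above, and Per1, described below, are among the 7 that rose. Dusp1, a MAP kinase phosphatase, had 34.2 and 32.1 CPM with ISO and 51.3 and 50.8 CPM with DMSO at 3 days (-0.63, SE 0.06, adjusted p = 9.8e-08). DMSO at 1 day was higher, at 64.0 and 63.4 CPM. Btg2, an antiproliferative early gene, had 84.5 and 83.1 CPM against 121 and 127 CPM (-0.57, SE 0.05), and both lie clear of the vehicles. Egr1, an early transcription factor, had 180.5 and 174 CPM against 253 and 281 CPM (-0.59), but DMSO at 1 day had 170.1 and 174 CPM, so it was not called against that group (adjusted p = 0.55). Fos fell by 0.70 on the log2 scale, from 14.9 and 15.99 CPM to 9.33 and 9.65 CPM. Nr4a1, a nuclear receptor that cAMP induces within hours, had 16.5 and 15.3 CPM and 16.1 and 16.96 CPM (-0.06, adjusted p = 0.73). Exons of Dusp1 overlap those of Ergic1.

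Ucp1 was an exception among thermogenic genes. Of 24 tested members of that list 2 rose, 10 fell and 12 were not called (8.33% and 41.7%, median -0.21). The count that fell was 6 without ISO replicate 2, and 7 to 10 without any other single library. Plin5, a lipid droplet protein that ties droplets to mitochondria, rose with Ucp1, from 20.7 and 20.99 CPM to 34.6 and 29.99 CPM (0.63, SE 0.08), but DMSO at 1 day was at 32.4 and 30.3 CPM and not apart from ISO (adjusted p = 0.73). Ppargc1a, the coactivator that drives mitochondrial genes, fell from 48.7 and 48.2 CPM to 36.9 and 34.4 CPM (-0.45, SE 0.06, adjusted p = 1.2e-05). Ppara, the fatty acid receptor of oxidative tissues, fell from 111 and 117 CPM to 79.6 and 77.3 CPM (-0.54, SE 0.05). Both were also called lower against DMSO at 1 day, at -0.50 and -0.33. Cidea, which helps lipid droplets fuse, changed in a direction that depended on the vehicle. It had 155 and 157 CPM with ISO, 196 and 205 CPM with DMSO at 3 days (-0.36) and 128 and 130.3 CPM with DMSO at 1 day (0.27), so it fell against one vehicle and rose against the other. Cox8b, a brown fat form of a cytochrome oxidase subunit, fell by 0.58. Elovl3, a fatty acid elongase, had 11.7 and 10.8 CPM and 10.3 and 8.61 CPM (0.24, adjusted p = 0.18), and the groups were apart by less than the test could call. Kcnk3, a potassium channel of brown fat, stood at -0.07 (adjusted p = 0.44) and Cox7a1 at -0.06 (adjusted p = 0.37).

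**Figure D3:**
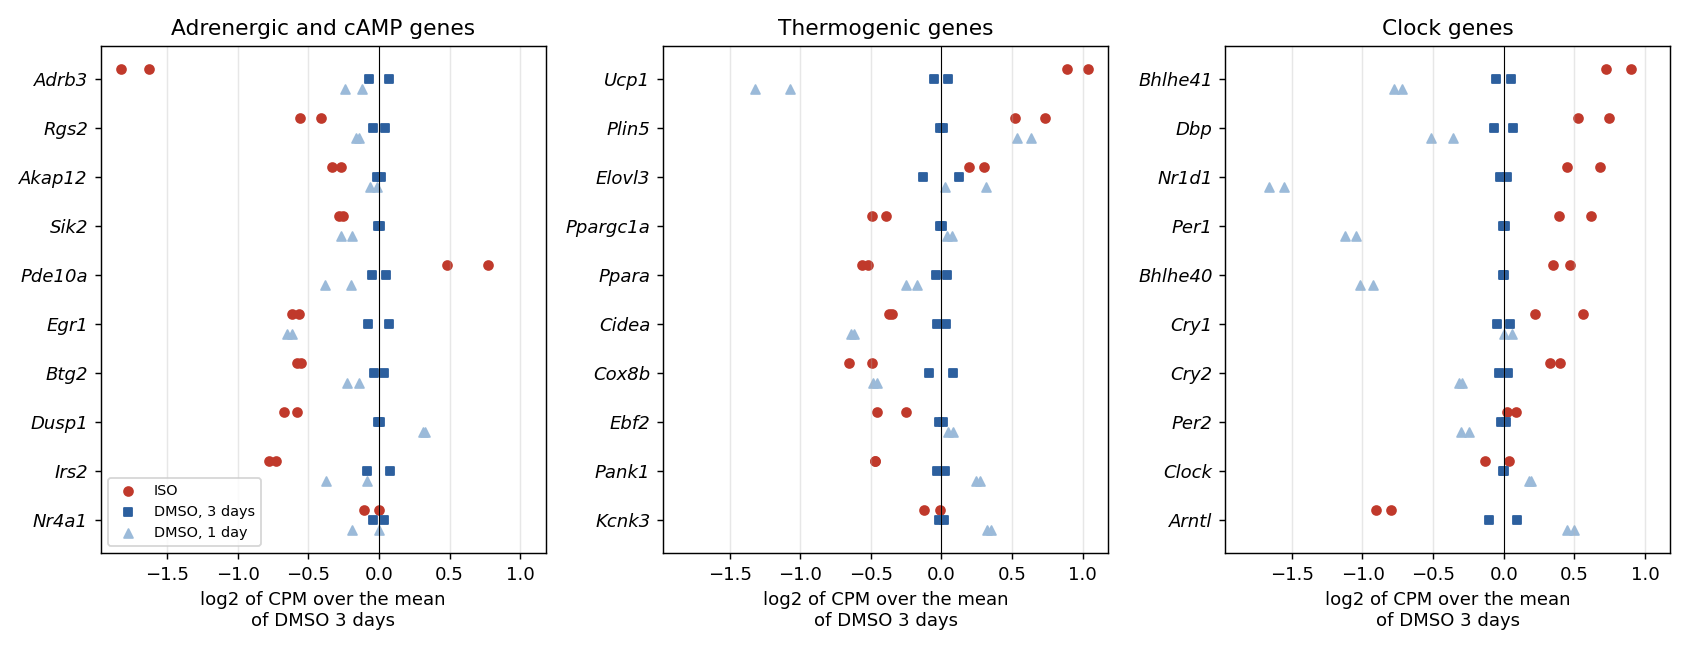
Log2 of each library's CPM over the mean of DMSO at 3 days for genes of the adrenergic and cAMP, thermogenic and clock lists, with 2 points each for ISO, DMSO at 3 days and DMSO at 1 day. Adrb3 lies farthest to the left with ISO, Ucp1 and Bhlhe41 lie on the right, and for Cidea and Egr1 the points of DMSO at 1 day lie at or below those of ISO.

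Genes of the respiratory chain show a difference between the vehicles and almost none between ISO and DMSO at 3 days. Of 54 nuclear genes of oxidative phosphorylation 3 rose and 3 fell (5.56% each, below the background), with a median of -0.01. Without any one of ISO replicate 2, DMSO 3 day replicate 1 or DMSO 3 day replicate 2, 1 fell, and without DMSO 3 day replicate 1 only 1 rose. Against DMSO at 1 day the median of the same genes was -0.41 and 51 of 54 were called lower, beside 20.3% of all genes, while DMSO at 3 days stood at -0.42 against DMSO at 1 day. Ndufs8, a complex I subunit, had 175 and 176 CPM with ISO, 149 and 151 CPM with DMSO at 3 days (0.23, SE 0.05) and 229 and 235 CPM with DMSO at 1 day. Of 20 citric acid cycle genes 2 were called higher and 0 lower (edgeR, 1 at an unadjusted p under 0.05 and 0 by DESeq2) with a median of 0.03. The 2 came to 1 when any single library was left out, and 18 of 20 were lower against DMSO at 1 day (median -0.31). Pdhb, a subunit of pyruvate dehydrogenase, was at 932 and 1025 CPM against 806 and 785 CPM (0.30). Of 23 genes of fatty acid oxidation 2 rose and 4 fell (median -0.07), and the 4 came to 1 without any one of ISO replicate 2, DMSO 3 day replicate 1 or DMSO 3 day replicate 2, to 1 by DESeq2 and to 8 with upper-quartile scaling. The 2 came to 1 without ISO replicate 1 or DMSO 3 day replicate 2. Set against DMSO at 1 day, 21 of the 23 were lower (median -0.38). Hadhb, a subunit of the mitochondrial trifunctional protein, fell from 57.3 and 51.6 CPM to 42.8 and 42.1 CPM (-0.36, SE 0.07). Of the genes that mitochondria encode, 3 were tested. mt-Nd3, a complex I subunit, fell from 224 and 242 CPM to 158 and 143 CPM (-0.64, SE 0.08), and mt-Co3 had 5839 and 5483 CPM against 6085 and 6241 CPM (-0.12, adjusted p = 0.11).

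Several main enzymes of lipid synthesis rose with ISO against DMSO at 3 days. Of 19 lipogenesis genes 6 rose and 1 fell (31.6% and 5.26%, median 0.08), while against DMSO at 1 day 5 were higher and 6 lower. Fasn, fatty acid synthase, had 1409 and 1510.2 CPM with ISO and 1010.0 and 951 CPM with DMSO at 3 days (0.57, SE 0.05, adjusted p = 3.7e-09). DMSO at 1 day had 1798 and 1845 CPM, above both, so against that vehicle Fasn was lower with ISO (-0.32). Acaca, acetyl-CoA carboxylase 1, had 933 and 1046 CPM against 703 and 672 CPM (0.53) and 810.2 and 748 CPM with DMSO at 1 day, and was above all 4 vehicle libraries. Acly, which makes cytosolic acetyl-CoA from citrate, rose by 0.51 and Slc25a1, the mitochondrial citrate carrier, by 0.52. Acacb, the carboxylase at the mitochondrial membrane, fell by 0.39, from 336 and 335 CPM to 263 and 250.5 CPM. Of 24 cholesterol synthesis genes tested 10 rose and 0 fell (edgeR, 1 lower at an unadjusted p under 0.05 and 0 by DESeq2), or 41.7%, with a median of 0.15. They included Sqle, squalene epoxidase, at 0.57, Mvd, which makes isopentenyl diphosphate, at 0.69, and the master regulator Srebf2 at 0.42. Srebf2 had 261 and 273 CPM against 203 and 196 CPM and 209 and 224 CPM with DMSO at 1 day.

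Of 16 genes of triglyceride and glycerol synthesis 6 rose, 1 fell and 9 were not called (37.5% and 6.25%, median 0.12). Against DMSO at 1 day the balance turned, with 2 higher, 7 lower and a median of -0.13. Dgat2, which adds the last acyl chain, had 204 and 189 CPM with ISO and 149 and 134 CPM with DMSO at 3 days (0.48, SE 0.05), and 219 and 214 CPM with DMSO at 1 day. Lpin1, a phosphatidate phosphatase, had 485 and 496 CPM against 413 and 402 CPM (0.27). Dgat2 was thus highest at 1 day of vehicle, whereas Lpin1 was highest with ISO. Of 15 lipolysis genes 6 rose, 2 fell and 7 were not called (median 0.08), but only 3 rose without ISO replicate 1. With DMSO at 1 day as vehicle 4 were higher and 9 lower, with a median of -0.19. The lipases at the heart of the pathway were not called: Pnpla2, adipose triglyceride lipase, stood at 0.08 (adjusted p = 0.3) and Lipe, hormone-sensitive lipase, at 0.10 (adjusted p = 0.19). Abhd6, a monoacylglycerol lipase, rose from 47.7 and 44.9 CPM to 58.1 and 58.5 CPM (0.33). Aqp7, the glycerol channel of fat cells, fell from 133 and 136 CPM to 93.3 and 84.3 CPM (-0.60, SE 0.05), and was higher again in DMSO at 1 day, at 147 and 150.3 CPM.

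Genes of glycolysis mostly rose where they were called. Of 25 genes of glucose uptake and glycolysis 12 rose and 3 fell (48.0% up, median 0.16). Pfkfb3, which makes the activator of phosphofructokinase, had 1038 and 1135 CPM with ISO, 841 and 829 CPM with DMSO at 3 days (0.38, SE 0.05) and 388 and 369 CPM with DMSO at 1 day. Aldoa, an aldolase, had 4623 and 4616 CPM against 3768 and 3655 CPM (0.32). The members that fell include Ldhb, a lactate dehydrogenase subunit, at -0.40 and Pdk4, a kinase that shuts off pyruvate dehydrogenase, at -0.49. Pdk4 had 374 and 357 CPM with ISO, 478 and 547 CPM with DMSO at 3 days and 210.2 and 224 CPM with DMSO at 1 day, and so lay between the vehicles. Of 21 hypoxia genes 9 rose and 2 fell (42.9% and 9.52%, median 0.12), and 1 fell without any one of ISO replicate 2 or the DMSO 3 day libraries. Those that rose include Ddit4, an inhibitor of mTORC1, at 0.43, Ndrg1 at 0.34, the collagen prolyl hydroxylase P4ha1 at 0.31 and carbonic anhydrase Car9 at 0.57. Against DMSO at 1 day the hypoxia median was 0.62, and DMSO at 3 days against 1 day stood at 0.34.

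The adipocyte identity list went both ways, with 6 of 23 genes up and 9 down (26.1% and 39.1%, median -0.10). Pparg, the nuclear receptor that governs fat cell differentiation, fell from 534 and 534 CPM to 440.1 and 432 CPM (-0.29, SE 0.04). Fabp4, the abundant fatty acid binding protein, had 4383 and 4295 CPM with ISO and 4674 and 4524 CPM with DMSO at 3 days (-0.08, adjusted p = 0.16). Acvr1c, an activin receptor of adipocytes, fell from 187 and 176 CPM to 139.7 and 124 CPM (-0.46). Adipoq, which encodes adiponectin, had 864 and 721 CPM against 938 and 935 CPM (-0.24, adjusted p = 0.0048), a fall that depended on single libraries. Without ISO replicate 2 it was -0.12 (adjusted p = 0.22), and without DMSO 3 day replicate 1 it was -0.23 (adjusted p = 0.056). Of 21 adipokines and white adipocyte genes 7 rose and 5 fell (33.3% and 23.8%, median 0.01), with 4 rising without DMSO 3 day replicate 2. Lep, the hormone leptin, had 1.61 and 1.43 CPM with ISO, 5.80 and 6.76 CPM with DMSO at 3 days (-2.05, SE 0.24, adjusted p = 1.1e-06) and 6.29 and 3.60 CPM with DMSO at 1 day, the largest fall in these lists although it rests on few counts, 27 and 30 with ISO against 114 and 131. Rbp4, the plasma retinol carrier, rose from 267 and 268 CPM to 372 and 372 CPM (0.48). Cfd, adipsin, fell from 352 and 377 CPM to 273 and 253 CPM (-0.47) and was higher in DMSO at 1 day, at 566 and 622 CPM. Of 19 PPAR targets 6 rose and 6 fell. These lists had more lower than higher calls against DMSO at 1 day, with 4 higher and 15 lower for adipocyte identity, 5 and 11 for adipokines and 4 and 10 for PPAR targets.

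Among secreted factors of brown fat 3 of 15 rose and 1, Angptl4, fell (median -0.02). Ghrh, growth hormone releasing hormone, had 8.91 and 8.83 CPM with ISO, 4.22 and 4.59 CPM with DMSO at 3 days (1.01, SE 0.14) and 1.63 and 2.04 CPM with DMSO at 1 day. Gdf15, a stress-induced hormone, had 28.9 and 30.8 CPM against 16.9 and 19.2 CPM (0.73, SE 0.10). Both groups of libraries were apart for each. Metrnl rose by 0.30 and did not pass without ISO replicate 2 (adjusted p = 0.0996), DMSO 3 day replicate 1 (adjusted p = 0.078) or DMSO 3 day replicate 2 (adjusted p = 0.062).

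Targets of the stress factors ATF4 and NRF2 held the highest shares of raised genes of all lists. Of 30 ATF4 targets, the genes of amino acid supply and stress that this factor induces, 18 rose and 1 fell (60% and 3.33%, median 0.21). Of the same 30, 17 were higher and 8 lower against DMSO at 1 day, beside 21.4% and 20.3% of all tested genes. Nupr1 had 184 and 200.03 CPM with ISO, 130.2 and 128 CPM with DMSO at 3 days (0.57, SE 0.05) and 104 and 113 CPM with DMSO at 1 day. Ddit3, the stress factor CHOP, had 507 and 536 CPM against 406 and 393 CPM (0.38), and Aars, alanyl-tRNA synthetase, 516 and 552 CPM against 408 and 394 CPM (0.41). Both lay above all 4 vehicle libraries. The member that fell was Atf5, from 161 and 183 CPM to 124 and 113 CPM (-0.54). Of 26 NRF2 targets, the antioxidant genes, 15 rose and 0 fell (edgeR, 2 lower at an unadjusted p under 0.05 and 0 by DESeq2; 57.7%, median 0.16), and 9 rose without ISO replicate 2. Hmox1, haem oxygenase 1, had 882 and 1063 CPM with ISO, 621 and 644 CPM with DMSO at 3 days (0.62, SE 0.06) and 525 and 535 CPM with DMSO at 1 day. Cbr3, a carbonyl reductase, rose by 0.48, the ferritin chain Ftl1 by 0.53 and the transketolase Tkt by 0.30 on the log2 scale. With DMSO at 1 day as vehicle, 11 of the 26 NRF2 targets were higher and 7 lower (median 0.10).

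Of 20 chaperones of the endoplasmic reticulum 10 rose and 0 fell (edgeR, 0 lower also at an unadjusted p under 0.05 and by DESeq2; median 0.16), with 5 rising without ISO replicate 2. Hspa5, the chaperone BiP, had 2249.6 and 2566 CPM with ISO, 1774 and 1775 CPM with DMSO at 3 days (0.44, SE 0.05) and 1388 and 1267 CPM with DMSO at 1 day. Hyou1 rose by 0.28, the disulfide isomerase P4hb by 0.23 and calreticulin, Calr, by 0.21. All 10 lay above all 4 vehicle libraries. Of 29 lysosome and autophagy genes 10 rose (34.5%, median 0.12), with Grn, progranulin, at 0.33, the lysosomal cholesterol carrier Npc2 at 0.26 and the autophagy receptor Sqstm1 at 0.24. This count was 6 without ISO replicate 1 or DMSO 3 day replicate 2. Of 19 p53 targets 5 rose and 1 fell (26.3% and 5.26%), led by Gadd45a at 0.52 and the cell cycle inhibitor Cdkn1a at 0.32. Heat shock genes stood near the background, with 3 of 19 up (15.8%), and of these Hspb8 was at 0.36.

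Of 30 proliferation genes 11 rose and 0 fell (edgeR, 0 lower also at an unadjusted p under 0.05 and by DESeq2; 36.7%, median 0.08). Aurka, a mitotic kinase, had 76.2 and 75.5 CPM with ISO and 61.4 and 56.5 CPM with DMSO at 3 days (0.36, SE 0.06), and Cdk1 had 201 and 189 CPM against 168 and 161 CPM (0.24). Plk1 rose by 0.38 and Cdc20 by 0.32. These mitotic genes were above both DMSO groups by small amounts. Of all 30 proliferation genes, however, 13 were called higher and 7 lower against DMSO at 1 day (median 0.06). Cytosolic ribosomal protein genes gave 9 of 40 raised (22.5%, median 0.11), but this count moved with single libraries and with the scaling. It was 2 without ISO replicate 1, 1 without DMSO 3 day replicate 1, 4 without DMSO 3 day replicate 2 and 3 with upper-quartile scaling. Rpl4 had 968 and 956 CPM against 859 and 861 CPM (0.16). Of 36 mitochondrial ribosomal protein genes 5 rose and 1 fell (13.9% and 2.78%), and 3 rose without any one of ISO replicate 1, DMSO 3 day replicate 1 or DMSO 3 day replicate 2. The direction was the opposite against DMSO at 1 day, with 1 higher, 28 lower and a median of -0.24.

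**Figure D4:**
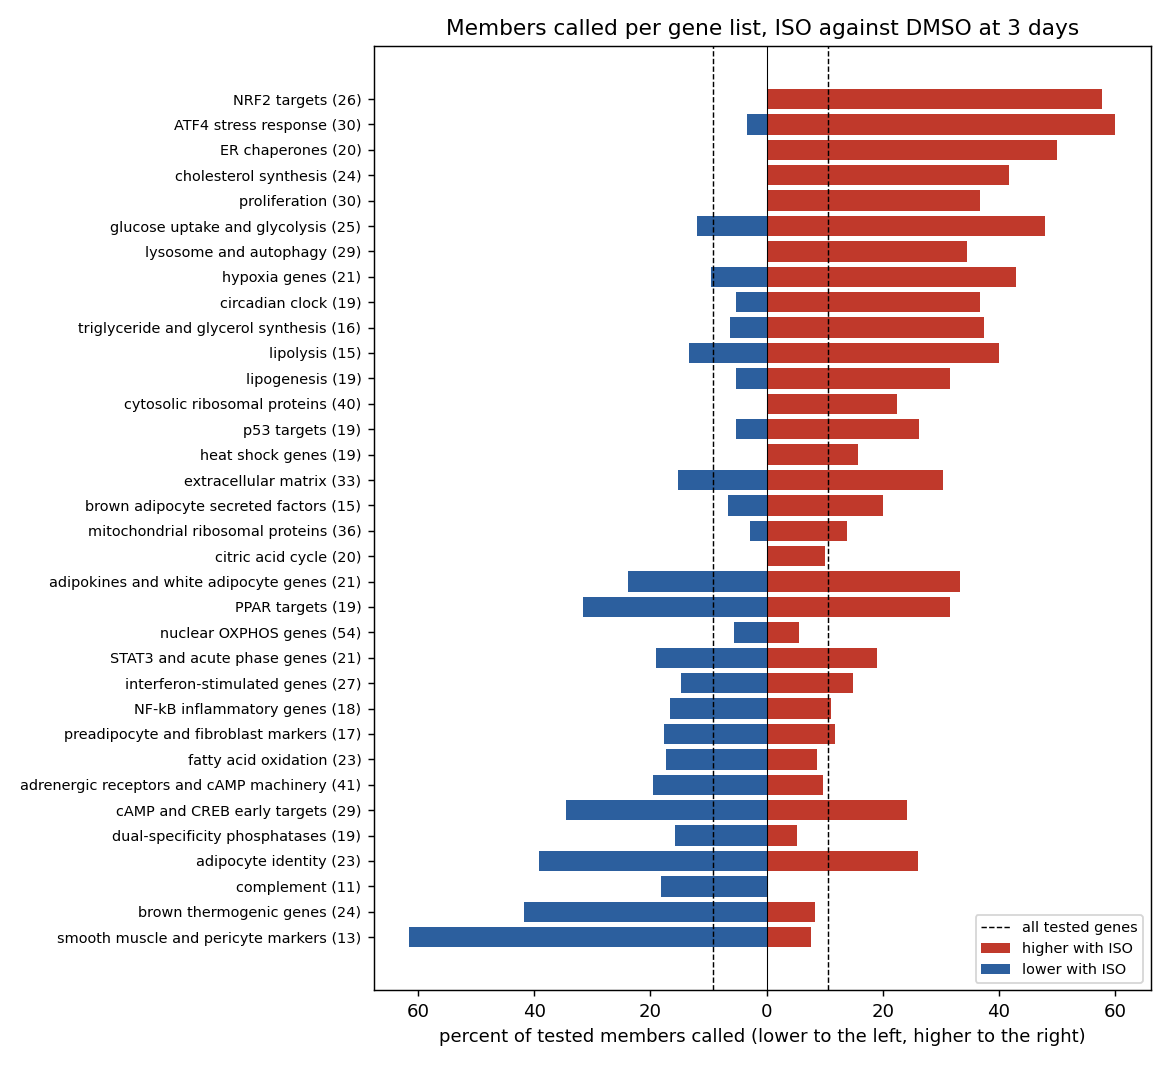
Percent of the tested members of each gene list (number in brackets) that were called lower (left, blue) or higher (right, red) with ISO, with dashed lines at 9.24% and 10.6%, the shares over all tested genes. ATF4 and NRF2 targets reach 60% and 57.7% higher, and smooth muscle markers reach 61.5% lower.

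Of 19 circadian clock genes tested 7 rose, 1 fell and 11 were not called (36.8% and 5.26%, median 0.05). Per1, a repressor of the clock, had 121 and 141 CPM with ISO, 92.4 and 91.4 CPM with DMSO at 3 days (0.51, SE 0.06) and 44.4 and 42.1 CPM with DMSO at 1 day. Dbp, an output transcription factor, had 84.0 and 97.8 CPM against 55.6 and 61.3 CPM (0.64), and Bhlhe41 had 26.6 and 30.04 CPM against 16.7 and 15.5 CPM (0.82). Nr1d1, the repressor REV-ERB alpha, had 22.3 and 26.3 CPM, 16.1 and 16.7 CPM and 5.18 and 5.58 CPM in ISO, DMSO at 3 days and DMSO at 1 day. Arntl, the activator that pairs with Clock on E-boxes, was the member that fell, with 5.204 and 4.82 CPM against 9.66 and 8.41 CPM (-0.85, SE 0.14) and 12.7 and 12.3 CPM with DMSO at 1 day. DMSO at 3 days lay between ISO and DMSO at 1 day for Per1, Dbp, Bhlhe41, Nr1d1 and Arntl. Bhlhe40, a relative of Bhlhe41, rose by 0.41. Per2 (0.05, adjusted p = 0.62) and Clock itself (-0.04, adjusted p = 0.69) were not called. The hour of harvest is not given in the labels, and its part in these values was not tested.

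The extracellular matrix list gave 10 of 33 genes up and 5 down (30.3% and 15.2%, median 0.10), but the genes that fell were 2 without ISO replicate 2 and 1 without DMSO 3 day replicate 2. Col15a1, a basement membrane collagen, had 900.2 and 833 CPM with ISO, 605 and 571 CPM with DMSO at 3 days (0.56, SE 0.05) and 515 and 495 CPM with DMSO at 1 day. Col4a1, a collagen of the basement membrane, had 2353 and 2182 CPM against 1793 and 1798 CPM (0.34). Thbs1, thrombospondin 1, fell from 668 and 711 CPM to 506 and 467 CPM (-0.50, SE 0.05). Against DMSO at 1 day the matrix median was 0.70 with 30 of 33 called higher (21.4% of all genes), and DMSO at 3 days against 1 day stood at 0.57. Among lists of at least 10 tested genes, smooth muscle and pericyte markers gave the largest share of lowered genes, 8 of 13 (61.5%, median -0.23), with 1 that rose. Against DMSO at 1 day 4 of the 13 were called higher and 5 lower (median -0.07), and only 4 of the 8 lay below all 4 DMSO libraries. The 8 came to 3 without ISO replicate 2 and to 5 without either DMSO 3 day library. Their summed level was 733 and 674 CPM with ISO against 771 and 798 CPM. Mylk, a myosin light chain kinase, fell from 23.6 and 26.1 CPM to 16.99 and 15.3 CPM (-0.63, SE 0.09), and Acta2, smooth muscle actin, from 81.0 and 87.7 CPM to 68.3 and 62.6 CPM (-0.37). Tagln fell by 0.38 but was at 22.1 and 20.8 CPM with DMSO at 1 day beside 42.8 and 37.8 CPM with ISO. The part of these markers in the other results was not tested.

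**Figure D5:**
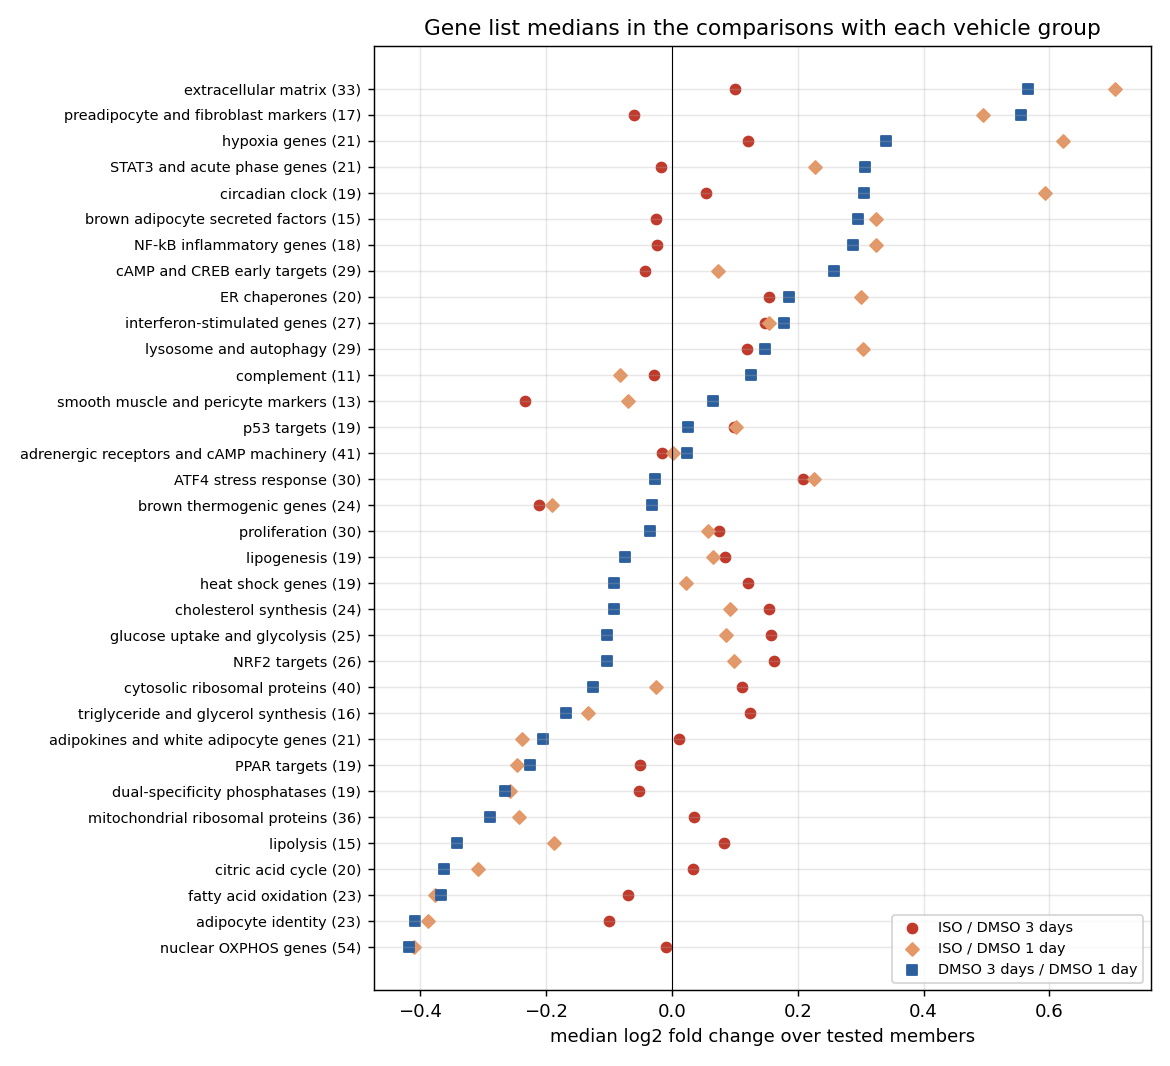
Median log2 fold change over the tested members of each gene list (number in brackets) for ISO over DMSO at 3 days (circles), ISO over DMSO at 1 day (diamonds) and DMSO at 3 days over 1 day (squares), 3 contrasts that share libraries. For the respiratory chain genes the circle lies near 0 while the other 2 symbols lie near -0.41, and for ATF4 targets the circle and diamond lie near 0.21 and 0.23 with the square near 0.

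Calls in the inflammatory lists were few and, except for complement, went both ways. Over all tested genes the shares were 10.6% up and 9.24% down, so the interferon and NF-kB lists stood near the background. Of 27 interferon-stimulated genes 4 rose and 4 fell (14.8% each), and 2 rose without ISO replicate 1 or DMSO 3 day replicate 1 while 2 fell without any one of ISO replicate 2 and the DMSO 3 day libraries. Stat2, a signal transducer of interferon, was at 0.40 and Gbp2, a guanylate binding protein, at -0.49. Of 18 NF-kB genes 2, Relb and Nfkb2, rose and 3 fell (11.1% and 16.7%). Neither passed without ISO replicate 2 (adjusted p = 0.16 and 0.25) or DMSO 3 day replicate 1 (adjusted p = 0.19 and 0.16), and Nfkb2 did not pass without DMSO 3 day replicate 2 (adjusted p = 0.066). Ccl2, a monocyte chemokine, fell from 22.9 and 22.4 CPM to 16.4 and 15.7 CPM (-0.50). Of 21 STAT3 and acute phase genes 4 rose and 4 fell (19.0% each), and 2 rose without ISO replicate 2 or DMSO 3 day replicate 1. Lcn2 and Hp, described above, lay at opposite ends of this list, and Steap4, a metalloreductase, fell from 143 and 141 CPM to 100.4 and 80.3 CPM (-0.66). Of 11 complement genes 2 fell (18.2%) and 0 rose (edgeR, 1 higher at an unadjusted p under 0.05 and 0 by DESeq2), with 1 falling without ISO replicate 2. Of 19 dual-specificity phosphatases 1 rose and 3 fell (5.26% and 15.8%). Beside Dusp4 and Dusp1, Dusp6 was at -0.71 (adjusted p = 0.0056). When DMSO 3 day replicate 2 was left out Dusp6 came to -0.51 (adjusted p = 0.13). Dusp22, the phosphatase that BML-260 is sold to inhibit, had 76.6 and 72.5 CPM with ISO and 69.3 and 72.9 CPM with DMSO at 3 days (0.07, adjusted p = 0.46).

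A table deposited by the authors lists selected genes for ISO, DMSO at 3 days and BML-260 at 3 days together. From its sign against the counts, 458 of the listed genes were higher and 248 lower in ISO, and 61 had an adjusted p under 0.05. The table does not name its contrast, and which libraries its fold change compares is not given in its headers. Of the 24 genes of largest change above, 10 are in the authors' deposited table, 6 raised and 4 lowered. Being listed there is not the same as passing: Krt19, Bhlhe41, Alpl, Aspa, Nabp1 and Irs2 did not reach an adjusted p under 0.05 in it. In the authors' deposited table Col5a3 had a log2 fold change of -0.75, Cyp2ab1 of -0.84 and Lcn2 of -0.47, the minus sign meaning higher in ISO, and Dusp4 of 0.41.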

How the data were processed

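RNA of 10 libraries of brown adipocytes was sequenced. The submitters' processing notes name mm9 and mm10 as builds, without roles, and DESeq2, bedtools, TopHat2 2.1.1 and bcl2fastq 2.17.1.14 as tools, so coordinates and sequences here come from GENCODE M21 and RefSeq on GRCm38 by gene symbol. The authors deposited raw counts per gene symbol for 24640 symbols. They also deposited tables of selected genes with a log2 fold change and a p-value and adjusted p-value, of which the one with ISO and the 3-day libraries was read, per the file headers.

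The fit used edgeR 4.0.16 in R 4.3.3: TMM scaling, a filter by group (minimum count 10, minimum total 15) that left 15212 genes, and a quasi-likelihood test with 1 mean per group over all 10 libraries, which leaves 5 residual degrees of freedom. P-values were adjusted over all genes, with a threshold of 0.05. SE is the absolute log2 fold change over the square root of F. CPM uses TMM-scaled totals and is not per length, so levels of different genes are not compared. Totals were 16955918 to 21185675 counts. The coefficient of variation of a gene's level between libraries of a group, beyond counting noise, was 3.39% by edgeR's estimate common to all genes. Rows whose symbol had become a date were kept under that name.

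The members and the 39 gene lists were chosen with earlier results of these data known. Named genes are the 12 highest and 12 lowest by log2 fold change among called genes that reach 10 CPM in one group, show no overlap and have no predicted name, up to 4 members of smallest p per list, and Ucp1, Ppargc1a, Dio2, Cidea, Elovl3, Adrb3, Adipoq, Fabp4, Lep, Nr4a1 and Dusp22. Adrb1, Pde10a, Fos, Kcnk3, Cox7a1, Acacb, Pnpla2, Lipe, Pparg, Car9, Nr1d1, Arntl, Per2, Clock, Cyp4b1, Cd74, Retn and Plin1 were added after their values were seen. Tested on simulated data for this comparison (14955 genes), the fit recovered 97% of 100 genes changed by 0.5 and 100% of 100 changed by 1 on the log2 scale, with 5.29% false calls. The changed genes were drawn from those with a mean of at least 10 CPM, and all genes were given the common spread of 3.39%. These shares therefore do not hold for genes of lower level or wider spread, and are not the error rate of the real calls. Alternatives were DESeq2 1.42.0, other scalings and filters, the 4 libraries alone, a replicate block, each library left out and the mean of both DMSO groups as vehicle.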

Additional observations from a re-analysis of the deposited data

How the results depend on the processing

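Against 3026 calls as reported, there were 3080 with DESeq2 size factors, 3051 with upper-quartile scaling, 2892 with no filter, 3088 with a filter of 1 CPM and 3168 with only the 4 libraries. DESeq2's Wald test made 1993 (1259 higher, 734 lower). With 1 library left out there were 1469 to 2542 calls, 874 to 1369 higher and 595 to 1173 lower. Against the mean of both DMSO groups there were 4954 (2643 higher, 2311 lower). No gene called in both fits changed direction under any of these but the last, where 20 did and 2315 kept it.

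Same-numbered libraries shared little: their deviations correlated between -0.034 and 0.058 over the pairs of groups. Counting noise in genes of few counts weakens such a correlation, so it cannot show that the libraries were unpaired. The fit with a replicate block made 3190 calls, 1714 higher and 1476 lower, with no named call lost.

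Against the mean of both DMSO groups, these named genes lay on the other side of 0, on the log2 scale: Acads -0.062, Ndufs8 -0.086, Ndufs7 -0.020, Ogdh -0.16, Sdhb -0.16, Pdk4 0.13, Pdgfrb 0.059, Fbn1 0.29, Tagln 0.26, Masp1 0.082, Hspe1 -0.055, Mrpl12 -0.20, Mrpl16 -0.0032, Retn -0.034, Adrb1 -0.29, Lipe -0.14 and Plin1 -0.016. This alternative lowers the weight of the 3-day vehicle by its own construction. For the other changes of call the cause was not tested. With 2 libraries a group, a gene of few counts is the least certain.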

Other observations

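Some genes below the level of 10 CPM changed by more than most of those named in the report, and they were chosen here after their values were seen. Ly6a, the surface antigen Sca-1 of progenitor cells, had 8.13 and 6.49 CPM with ISO, 2.34 and 2.78 CPM with DMSO at 3 days (1.50, SE 0.18, edgeR adjusted p = 1.2e-06) and 2.62 and 3.01 CPM with DMSO at 1 day. The preadipocyte and fibroblast list that holds it did not move with it. Of its 17 tested members 2 rose, 3 fell and 12 were not called (11.8% and 17.6%, median -0.06). Cd74, the invariant chain of MHC class II, had 8.67 and 9.26 CPM with ISO, 4.42 and 4.38 CPM with DMSO at 3 days (1.03, SE 0.16) and 3.96 and 3.81 CPM with DMSO at 1 day. Cyp4b1, a cytochrome P450 of adipocytes, had 1.38 and 1.62 CPM with ISO and 0.356 and 0.464 CPM with DMSO at 3 days (1.87, SE 0.40), which are 23 and 34 counts against 7 and 9. For all of these both ISO libraries lay above all 4 DMSO libraries. Cd68, a lysosomal protein abundant in macrophages, had 6.94 and 6.21 CPM against 4.12 and 3.92 CPM (0.70, SE 0.17), in libraries with no count of Adgre1 or Ptprc.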
